A study of Mus musculus with 4 samples.

Results

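Acvr1, the BMP receptor genes Bmpr1a, Bmpr1b and Bmpr2, the ligand gene Bmp7, the inhibitory Smad gene Smad6 and the 4 Id genes were followed through 4 mouse tumours. The 10 genes were chosen by symbol, and all 10 were found among the 46946 genes counted. Each tumour was untreated and carried the K27M mutation of histone H3, which replaces a lysine that PRC2 methylates. The labels describe tumours derived from neural stem cells with PDGF and K27M, while the design text of the series names injected DIPG (diffuse intrinsic pontine glioma) cells with mutant histone H3.3. The promoter of the transgenes, the host strain and the age of the mice are not given in the sources used for this account. PolyA RNA of each tumour was sequenced, and the tumours bear the names T14, T10, T8 and TUN of the deposited columns. All 4 form 1 group with no normal brain or second genotype, so the question open to these data is at what level the genes stood and how far they differed between tumours. The labels say only that these are separate tumours, so each p-value measures only the spread between these samples.

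Bone morphogenetic proteins (BMPs) are secreted ligands that bring together type I and type II receptor kinases. The type II receptor activates the type I receptor, which phosphorylates SMAD1, SMAD5 and SMAD9. These join SMAD4, enter the nucleus and raise the transcription of targets such as the Id genes and the feedback inhibitors SMAD6 and SMAD7. Id proteins have a helix-loop-helix but no DNA-binding region, and they hold back bHLH factors by pairing with their partners. In the developing brain, BMP signalling favours astrocytes over oligodendrocytes, and ID2 and ID4 are known inhibitors of oligodendrocyte differentiation. The human gene ACVR1 is recurrently mutated in diffuse intrinsic pontine glioma together with mutant histone H3. Read counts per gene hold no sequence, so the allele of Acvr1 was not analysed here.

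The libraries held 21664889 to 24369339 counts. All 19 oligodendrocyte precursor genes listed were at 1 CPM (the count scaled to its TMM-adjusted library) or more in every tumour, with Olig1, a transcription factor of that lineage, at 2519 to 3981 CPM and Ptprz1, a receptor phosphatase, at 2172 to 2851 CPM. No gene of the 10 cell type lists was at 0 in all tumours. Differences over 2-fold were found at 651 of 14266 genes between T8 and TUN and at 694 between T14 and T10, and at 2214 to 2585 for the remaining pairs.

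Bmp7 was the highest of the BMP and GDF ligand genes listed by mean RPKM, and in T14 alone was it exceeded, by Gdf10 (41.0 RPKM for Gdf10 in T14). Bmp7 (ENSMUSG00000008999.7, chromosome 2, 172868012 to 172940321 in mm10, minus strand, 7 merged exons) encodes a secreted BMP that signals through ACVR1, BMPR1A and BMPR1B. It had 108 CPM in T14 and 164 in T10, with 277 in T8 and 237 in TUN, a span of 2.55-fold between the lowest and the highest tumour. T8 and TUN were both above T10 and T14. Per length, Bmp7 stood at 48.9 ± 18.7 RPKM (CPM divided by merged exon length in kilobases; SD, n = 4), above 92.6% of the genes tested. Bmp4, another BMP ligand gene, had 2.49 CPM in T14 and 2.77 in T10, with 0.335 in T8 and 0.848 in TUN. The log2 ratio of Bmp7 to Bmp4 in RPKM (pseudocount 0.1) was 6.11 ± 1.71 and above 0 in 4 of 4 tumours. Each such ratio was tested with a two-sided exact sign-flip test over the tumours, whose smallest p with 4 tumours is 0.13, so no ratio can be called. For Bmp7 over Bmp4 the exact sign-flip p was 0.13, and the size of the ratio depends on the pseudocount, since Bmp4 lies near 0.

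Among type I receptor genes, Bmpr1a led in every tumour, Acvr1 followed and Bmpr1b was lowest. Acvr1 (ENSMUSG00000026836.15, chromosome 2, 58388644 to 58567157, minus strand, 17 merged exons) encodes the receptor ALK2. It had 38.6 CPM in T14 and 37.5 in T10, with 43.9 in T8 and 44.2 in TUN. Its highest tumour exceeded its lowest by 1.18-fold, a smaller span than that of all but 8.84% of the genes tested. Its level per length was 8.50 ± 0.722 RPKM (SD, n = 4), above 53.6% of the genes tested. Bmpr1a (ENSMUSG00000021796.14, chromosome 14, 34410734 to 34503341, minus strand), the gene of the receptor ALK3, had 175 CPM in T14 and 194 in T10, with 223 in T8 and 202 in TUN, or 31.3 ± 3.12 RPKM. Its span was 1.27-fold. Bmpr1a overlaps Gm17110 on the opposite strand by 290 exon bases, and that gene had 2 counts in T8 and 0 in the other libraries.

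Of the 4 BMP receptor genes followed here, Bmpr1b had the widest span between tumours. Bmpr1b (ENSMUSG00000052430.15, chromosome 3, 141837136 to 142169425, minus strand), the gene of the receptor ALK6, had 24.3 CPM in T14 and 15.4 in T10, with 11.1 in T8 and 5.18 in TUN. The tumours did not cluster in pairs here, and the span was 4.69-fold. Its level per length was 2.35 ± 1.35 RPKM (SD, n = 4), above 22.6% of the genes tested. The type II receptor gene Bmpr2 (ENSMUSG00000067336.6, chromosome 1, 59763400 to 59879014, plus strand) had 219 CPM in T14 and 328 in T10, with 207 in T8 and 173 in TUN. T10 stood above the other 3, which lay between 173 and 219 CPM. With 17983 bases of merged exon, the longest of the 10 genes, Bmpr2 came to 12.9 ± 3.75 RPKM.

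Compared per length, Acvr1 stood below Bmpr1a by a log2 ratio of -1.87 ± 0.10 (SD, n = 4), and the ratio lay between -1.96 and -1.77 in the 4 tumours. Bmpr1a stood above Bmpr1b by 3.86 ± 0.98 log2 units, from 2.73 in T14 to 5.05 in TUN. Bmpr2 exceeded Acvr1 by 0.56 ± 0.49, with 0.07 in TUN and 1.23 in T10. Acvr1 stood below Tgfbr1, the type I receptor gene of TGF-beta, by -0.53 ± 0.24. Each of these 4 ratios had 1 sign in 4 of 4 tumours (exact sign-flip p = 0.13, the smallest possible). The summed RPKM of the 3 type I genes was 42.1 ± 2.77 and spanned 1.16-fold between tumours. Acvr1 made up 20.2% ± 1.21 of that sum, Bmpr1a 74.1% ± 3.15 and Bmpr1b 5.68% ± 3.52. The share of Bmpr1b was 10.3% in T14 and 6.31% in T10, with 4.05% in T8 and 2.07% in TUN.

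**Figure D1:**
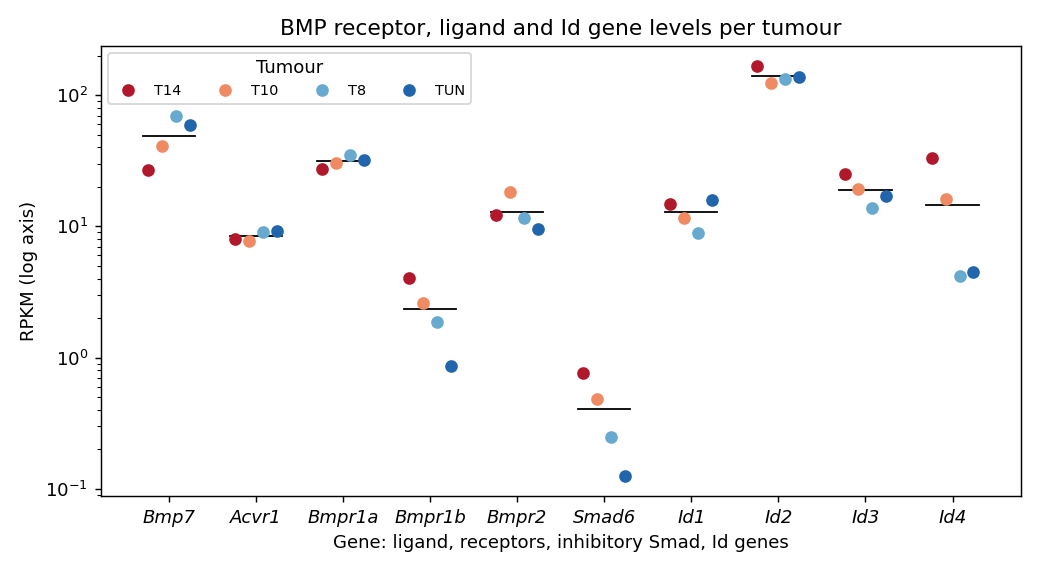
RPKM on a log axis (vertical) of the 10 genes (horizontal), with 1 point per tumour and a black line at the mean of 4. The points of Acvr1, Bmpr1a and Id2 lie close together, while Id4 runs from 4.16 in T8 to 33.4 RPKM in T14, Bmpr1b from 0.869 to 4.07 and Smad6 from 0.1254 to 0.762.

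Smad6 (ENSMUSG00000036867.7, chromosome 9, 63953076 to 64022059, minus strand), the gene of an inhibitory SMAD that blocks BMP receptor signalling, was the lowest of the 10. Its counts numbered 55 in T14 and 38 in T10, with 19 in T8 and 9 in TUN. These are 2.44 CPM (95% exact Poisson interval 1.84 to 3.18) in T14 and 1.55 (1.09 to 2.12) in T10, with 0.796 (0.479 to 1.24) in T8 and 0.402 (0.184 to 0.763) in TUN. The intervals cover counting error only and not other variation between tumours. The reads carried no molecular identifiers, so duplicate reads could not be told apart. The interval of T14 lies above those of T8 and TUN. Smad6 did not pass the filter on low counts and was not tested in the main edgeR fit. In the fit without that filter it was not called, as the 1 call among the 10 genes was Id4. Smad7, which inhibits both BMP and TGF-beta signalling, was higher per length in 4 of 4 tumours, with 24.9 CPM in T14 and 21.3 in T10, with 13.7 in T8 and 11.8 in TUN. The log2 ratio of Smad6 to Smad7 in RPKM was -3.13 ± 0.37 (SD, n = 4, exact sign-flip p = 0.13).

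Id2 was the highest of the 10 genes by mean RPKM and lay in a narrow range, while Id4 had the widest range of the Id genes. By mean CPM, without length correction, Id2 (178) stood below Bmpr2 (232), Bmpr1a (199) and Bmp7 (196). Id2 (ENSMUSG00000020644.8, chromosome 12, 25093801 to 25096092, minus strand) had 211 CPM in T14 and 156 in T10, with 168 in T8 and 176 in TUN. Its span was 1.35-fold. With the exon length of the deposited table its level was 140 ± 18.4 RPKM (SD, n = 4), above 98.5% of the genes tested. Id4 (ENSMUSG00000021379.1, chromosome 13, 48261427 to 48264036, plus strand) had 55.5 CPM in T14 and 26.7 in T10, with 6.91 in T8 and 7.50 in TUN. T14 stood 8.03-fold above T8, and T10 lay between T14 and the 2 low tumours. Id4 shares 171 exon bases with A330033J07Rik on the opposite strand, which had 40 counts in T14 and 33 in T10, with 3 in T8 and 2 in TUN, against 1250, 656, 165 and 168 for Id4. The library kit does not mark strand, so reads from the shared bases cannot be assigned to either gene.

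Id1 and Id3 lay between these extremes. Id1 (ENSMUSG00000042745.9, chromosome 2, 152736251 to 152737410, plus strand), a classical immediate target of BMP signalling, had 17.3 CPM in T14 and 13.5 in T10, with 10.4 in T8 and 18.4 in TUN. Its high tumours were T14 and TUN, a pairing that no other of the 10 genes but Id2 showed. Id3 (ENSMUSG00000007872.3, chromosome 4, 136143497 to 136145755, plus strand) had 45.1 CPM in T14 and 34.2 in T10, with 24.8 in T8 and 30.8 in TUN. The spans were 1.77-fold for Id1 and 1.82-fold for Id3. Per length, Id1 stood at 12.8 ± 3.17 RPKM and Id3 at 18.8 ± 4.76 (SD, n = 4). The log2 ratio of Id1 to Id3 was -0.55 ± 0.30, with -0.76 in T14 and -0.11 in TUN, and below 0 in 4 of 4 tumours.

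Id2 exceeded Id1 per length by 3.46 ± 0.31 log2 units, and Id4 stood below Id2 by -3.77 ± 1.36 (SD, n = 4; 1 sign in 4 of 4 tumours and exact sign-flip p = 0.13 for each). Of the summed RPKM of the 4 Id genes, Id2 held 69.3% in T14 and 72.4% in T10, with 83.1% in T8 and 78.7% in TUN. Id4 held 13.97% in T14 and 9.48% in T10, with 2.61% in T8 and 2.57% in TUN. The order below Id2 therefore differed: Id4, Id3, Id1 in T14, then Id3, Id4, Id1 in T10, and Id3, Id1, Id4 in both T8 and TUN. Levels per length of Id2 and Id4 depend on the annotation. The merged exons of Id2 measure 1270 bases in the deposited table and 2438 in the later GENCODE vM21, and those of Id4 1660 and 3849, while the other 8 genes have the same length in both. With the vM21 lengths Id4 was the lowest of the 4 Id genes per length in every tumour. In T14 it had 14.4 RPKM against 14.9 for Id1. Only the lengths were changed. Reads on the bases that vM21 adds were not counted, so the levels of Id2 and Id4 could only fall. The place of Id4 above Id1 in T14 and T10 and above Id3 in T14 thus depends on the length used. Its place with reads recounted is not known. With the vM21 lengths and the same counts, the share of Id2 was 61.3% in T14 and 62.9% in T10, with 73.7% in T8 and 67.3% in TUN.

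**Figure D2:**
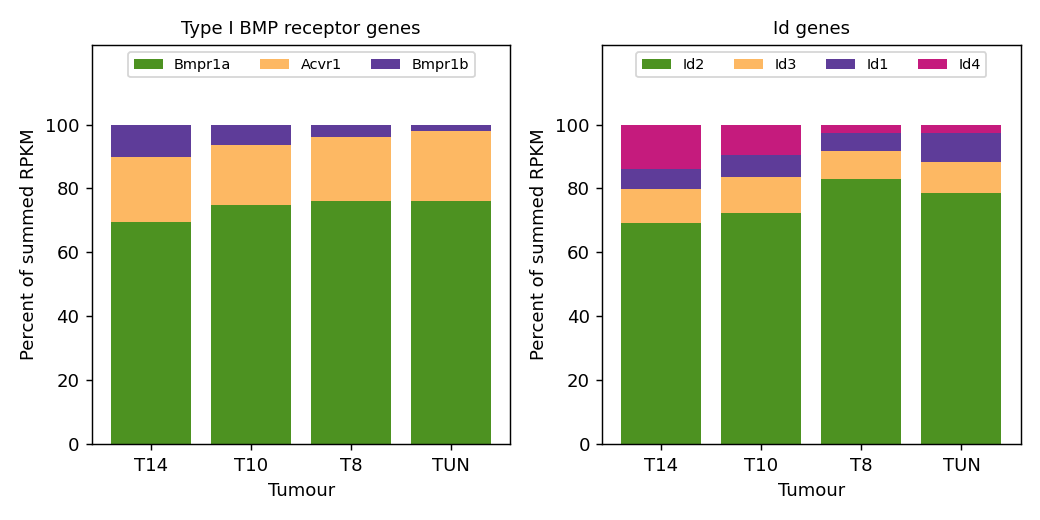
Share of the summed RPKM (percent, vertical) held by each type I BMP receptor gene (left) and each Id gene (right) in the 4 tumours. Bmpr1a holds 69.5% to 76.2% of the receptor sum and Id2 69.3% to 83.1% of the Id sum, and the shares of Bmpr1b and Id4 are highest in T14.

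The promoters of Id2, Id4 and Smad6 are shown because, of the 4 Id genes and Smad6, Id2 differed least between tumours and Id4 and Smad6 most. The sequences are from RefSeq on GRCm38.p6 and run from 250 bases before the RefSeq start site through the first 30 bases from it, 5′ to 3′ on the gene's strand. They cover chr12:25096063-25096342 for Id2 (minus strand), chr13:48260866-48261145 for Id4 (plus strand) and chr9:64022030-64022309 for Smad6 (minus strand). Capitals mark GGCGCC, a GC-rich element through which BMP-activated SMADs can bind, and GTCTAGAC, the palindromic SMAD-binding element.
Id2: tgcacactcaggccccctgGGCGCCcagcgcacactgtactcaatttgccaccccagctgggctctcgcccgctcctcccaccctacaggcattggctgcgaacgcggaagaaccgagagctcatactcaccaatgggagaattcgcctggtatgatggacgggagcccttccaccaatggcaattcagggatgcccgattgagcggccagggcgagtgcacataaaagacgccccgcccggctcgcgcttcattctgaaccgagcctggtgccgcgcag
Id4: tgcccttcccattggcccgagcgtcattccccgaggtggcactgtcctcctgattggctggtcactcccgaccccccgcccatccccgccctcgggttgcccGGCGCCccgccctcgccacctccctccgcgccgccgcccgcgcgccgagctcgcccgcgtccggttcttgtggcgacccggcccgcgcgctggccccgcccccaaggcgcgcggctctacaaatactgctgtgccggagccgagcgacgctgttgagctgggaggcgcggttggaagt
Smad6: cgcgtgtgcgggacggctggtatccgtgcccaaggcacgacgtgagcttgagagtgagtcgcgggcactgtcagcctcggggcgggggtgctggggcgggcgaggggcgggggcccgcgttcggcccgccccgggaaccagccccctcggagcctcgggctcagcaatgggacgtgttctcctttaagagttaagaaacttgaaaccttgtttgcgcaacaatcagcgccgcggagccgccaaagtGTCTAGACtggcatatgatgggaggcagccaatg

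Both motifs read the same on either strand, and the marked matches do not overlap each other. GGCGCC was found in the windows of Id2, Id4, Bmpr1a and Bmpr2, and in 10.9% of the 32851 RefSeq promoter windows of the same length. In Id2 it begins at position -231 and in Id4 at -148 from the start site, so the Id genes with the narrowest and the widest span both hold it. GTCTAGAC was found in the window of Smad6, beginning at -4, and in 0.192% of all windows. Of the 10 genes, 8 had a promoter entry, and Id1 and Bmp7 had none. GGCGCC holds only G and C, and these bases made up 62.9% of the Id2 window and 74.3% of that of Id4. They made up 65.4% of the Smad6 window, which lacks GGCGCC, against a mean of 53.6% over all windows. The part of base content in the matches was not tested. The matches describe letters in these windows and not binding. The first exon of Id4 in the deposited table begins downstream of this RefSeq start.

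Variation between tumours was tested with an edgeR goodness of fit, which asks whether a gene differs between libraries more than genes of like abundance. Of the 10 genes, 9 passed the filter on low counts and 1 was called at an adjusted p under 0.05, against 4.34% of the 14266 genes tested. The called gene was Id4 (adjusted p = 0.00399, Benjamini-Hochberg over all genes tested). The adjusted p of Bmpr1b was 0.93, and those of the other 7 genes were 1. Only Id4 had an unadjusted p under 0.05, as had 8.38% of all genes tested. The call of Id4 rests on T14, since without T14 its adjusted p was 0.416, and Id4 was not a dispersion outlier in DESeq2. An adjusted p above the threshold does not show that a gene was steady: Bmpr1b spanned 4.69-fold and Bmp7 2.55-fold without a call. The median span of the 9 genes was 1.82-fold, against 1.57-fold over all genes tested.

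The genes differed in which tumours were high. Id4, Bmpr1b, Bmpr2 and Id3 stood higher in both T14 and T10 than in T8 and TUN, as did 33.0% of all genes tested and 91.4% of the 619 genes called. Bmp7, Acvr1 and Bmpr1a stood lower in both T14 and T10 than in T8 and TUN, as did 32.5% of all genes tested. Smad6, outside the test, had its order from high to low in T14, T10, T8 and TUN, as Bmpr1b did. Of the 10 genes, 4 spanned more than 2-fold. These were Smad6 (6.07-fold), which lies outside the test, and Id4, Bmpr1b and Bmp7 among the 9 genes tested. Of all genes tested, 29.1% spanned more than 2-fold.

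Marker genes of several cell types also differed between the tumours. The 17 neuron genes, all at 1 CPM or more in every tumour, deviated from their mean by 1.65 log2 CPM in T14 and 1.49 in T10, with -1.17 in T8 and -1.96 in TUN. Their summed level was 5751 CPM in T14 and 5210 in T10, with 1382 in T8 and 1195 in TUN, and 15 of 17 were called. The most abundant were Map2, which encodes a protein of dendrites (742 to 1066 CPM), and Snap25, a synaptic vesicle fusion gene (63.8 to 1580 CPM). The 16 astrocyte genes deviated by 1.12, 0.57, -0.74 and -0.95 in the same order of tumours, with 9 of 16 called and a summed level of 2840 CPM in TUN to 9376 CPM in T14. Their most abundant members were the glutamate transporter genes Slc1a3 (767 to 1512 CPM) and Slc1a2 (424 to 1276 CPM). For Id4 the deviations were 1.73, 0.68, -1.26 and -1.14, for Bmpr1b 1.0, 0.34, -0.13 and -1.21, and for Smad6 1.13, 0.50, -0.39 and -1.24. The part of neurons and astrocytes in the levels of Id4, Bmpr1b and Smad6 was not tested. In bulk tissue, fewer cells of a type and less RNA per cell cannot be told apart.

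Bmp7 deviated by -0.77 log2 CPM in T14 and -0.17 in T10, with 0.58 in T8 and 0.36 in TUN. The 21 mitosis genes, of which 0 of 21 were called, deviated by -0.50, -0.63, 0.39 and 0.73 in the same order of tumours. All 21 mitosis genes stood lower in both T14 and T10 than in T8 and TUN, against 32.5% of all genes tested. Their most abundant members were Top2a, a topoisomerase of dividing cells (276 to 677 CPM), and the proliferation marker gene Mki67 (205 to 427 CPM), and their summed level was 1352 CPM in T10 to 3189 CPM in TUN. Both Bmp7 and the mitosis genes were higher in T8 and TUN, but Bmp7 was highest in T8 and the mitosis genes in TUN. The 19 oligodendrocyte precursor genes had mean deviations of -0.16 in T14 and 0.06 in T10, with 0.02 in T8 and 0.08 in TUN. Of these genes, 0 of 19 were called, and their median span was 1.62-fold. In both T14 and T10, 11 of the 19 were lower than in T8 and TUN. The summed level of the 19 was 12486 CPM in T14 and 14744 in T10, with 18686 in T8 and 16046 in TUN. The sum had the same order of tumours as Bmp7, but the mean deviations did not. The part of dividing cells and of precursor cells in the level of Bmp7 was not tested.

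Id1 and Id3 are known for expression in blood vessels, and Acvrl1 encodes the BMP receptor ALK1 of endothelium. The 13 endothelial genes deviated by 0.34 log2 CPM in T14 and 0.10 in T10, with -0.18 in T8 and -0.27 in TUN, and their summed level lay between 325 CPM in TUN and 400 CPM in T14. Their most abundant members were the tight junction gene Cldn5 (41.3 to 73.8 CPM) and the VEGF receptor gene Flt1 (39.6 to 70.1 CPM), and 1 of 13 was called. Id3 was highest in T14 as the endothelial list was, while Id1 was highest in TUN. Acvrl1 had 19.1 CPM in T14 and 14.1 in T10, with 14.4 in T8 and 14.1 in TUN. The part of endothelial cells in the Id levels was not tested.

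Other cell type lists had other orders. The 16 mature oligodendrocyte genes, with the myelin gene Mbp highest (379 to 2268 CPM), deviated by 0.49, 1.07, -0.72 and -0.84 log2 CPM in T14, T10, T8 and TUN, with 8 of 16 called. The 9 ependymal and choroid plexus genes at mean CPM 1 or more deviated by 0.35, 2.12, -0.72 and -1.75 in the same order. They were led by Ttr, the transthyretin gene (3.35 to 579 CPM), and the cilium factor gene Foxj1 (6.12 to 16.2 CPM), with 2 of 5 tested genes called. Bmpr2 shared its highest tumour, T10, with these lists. The 11 pericyte and fibroblast genes, led by Cspg4 (569 to 952 CPM), which precursor cells also express, and the collagen gene Col1a1 (81.6 to 163 CPM), had a mean deviation between -0.38 and 0.20 and a median span of 1.996-fold, with 0 of 11 called. The 16 microglia genes, among them the complement gene C1qa (112 to 200 CPM), had a mean deviation between -0.10 and 0.09 and a median span of 1.71-fold, with 0 of 16 called. The 10 macrophage genes, led by the lysozyme gene Lyz2 (113 to 951 CPM) and Cd68 (16.8 to 55.5 CPM), deviated by -0.14, -0.77, 0.03 and 0.88 with 2 of 10 called. Of the cell type lists with 0 genes called by edgeR, the mitosis and the pericyte and fibroblast lists each held 3 genes with an unadjusted p under 0.05, the oligodendrocyte precursor list 2 and the microglia list 1, and DESeq2 marked 0 dispersion outliers in each.

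**Figure D3:**
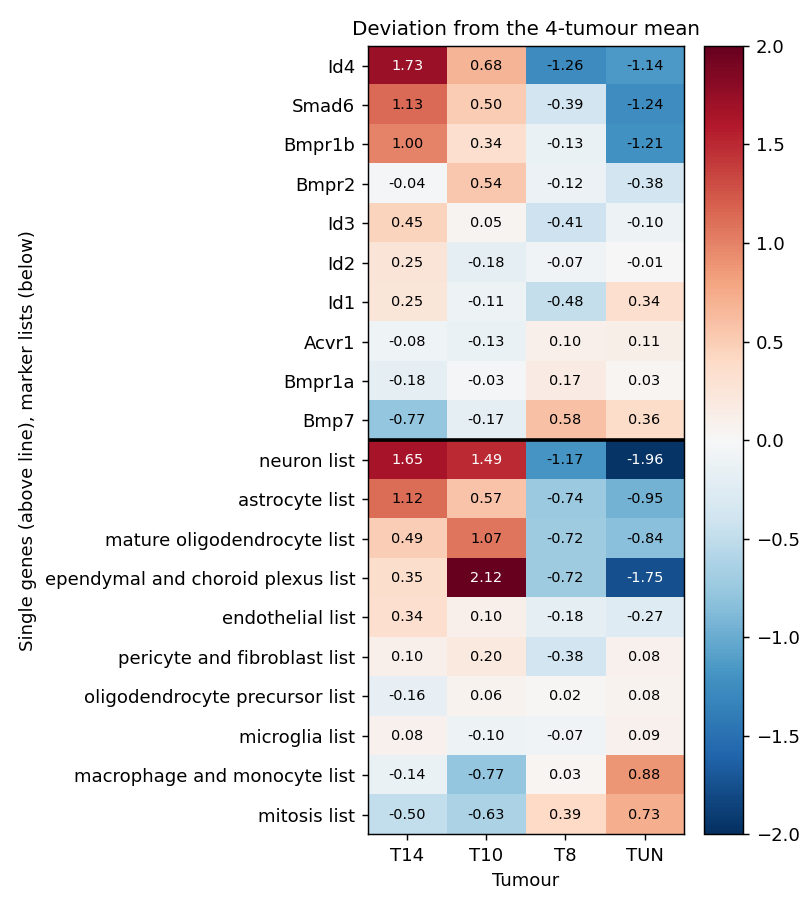
Deviation in log2 CPM from the 4-tumour mean (colour and printed number) in each tumour (columns) for the 10 genes (rows above the line) and the mean of each cell type marker list (rows below it). Id4, Smad6 and Bmpr1b are red in T14 and blue in TUN, as the neuron and astrocyte lists are, and Acvr1 and Bmpr1a stay near 0.

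The other genes of the pathway were read from 9 lists with 80 genes in the table. Of these, 54 were tested and 3 were called, which is 5.56% of those tested against 4.34% of all genes. Among the called genes were the ligand genes Gdf10 and Bmp6. The 26 genes outside the test were very low in at least 1 tumour. The median span of the 54 genes was 1.73-fold. An unadjusted edgeR p under 0.05 was found for 7 of the 54, namely the 3 called genes, Smad9, Chrdl1, Nbl1 and the co-receptor gene Tgfbr3, so the lists with 0 called held at most 1 such gene each, and DESeq2 marked 1 of the 54, Gdf10, as a dispersion outlier.

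Of 17 other BMP and GDF ligand genes, 6 were tested, and Gdf10 and Bmp6 were called. Gdf10 (BMP3B), a gene of Bergmann glia in the cerebellum, had 103 CPM in T14 and 17.5 in T10, with 1.26 in T8 and 0.893 in TUN (adjusted p = 1.68e-16, edgeR). Its highest tumour exceeded its lowest by 115-fold, and it remained past the threshold without T14 (adjusted p = 0.00289). Bmp6 had 8.92 CPM in T14 and 8.59 in T10, with 1.01 in T8 and 0.625 in TUN (adjusted p = 0.00918, edgeR). Without TUN the adjusted p of Bmp6 was 0.165. Gdf11, a ligand of activin receptors, led the list per length at 18.0 RPKM, followed by Gdf10 at 12.2 and Bmp6 at 1.99, all below Bmp7 on the same scale. Bmp10 had 0 counts in every library. Among 5 activin and Nodal genes, 0 of 3 tested were called, and the activin subunit gene Inhbb led at 7.38 RPKM, above the inhibin gene Inha (2.26 RPKM) and the activin gene Inhba (0.498 RPKM).

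No receptor, co-receptor or SMAD gene of the wider family was called. Of 8 other receptor genes, 0 of 6 tested were called, and the highest per length were the activin receptor gene Acvr1b (16.3 RPKM), Tgfbr1 (12.5 RPKM) and the activin type II receptor gene Acvr2a (7.51 RPKM). Acvr1 thus lay between Tgfbr1 and Acvr2a in mean RPKM. Of the 5 co-receptor genes, 0 of 5 were called, and they were led by the netrin and RGM receptor gene Neo1 (30.2 RPKM), Eng (10.5 RPKM), the endoglin gene of endothelium, and the BMP co-receptor gene Rgma (10.3 RPKM). Of the 6 SMAD genes, 0 of 6 were called. The common partner gene Smad4 stood at 29.5 RPKM, Smad5, of the BMP branch, at 27.4 RPKM, and Smad2, of the TGF-beta and activin branch, at 12.3 RPKM. Smad1, which shares its role with Smad5, stood at 9.08 RPKM. Smad9, the other SMAD gene of the BMP branch, had 36.5 CPM in T14 and 33.0 in T10, with 10.9 in T8 and 7.81 in TUN (adjusted p = 0.181).

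Of 14 genes of secreted BMP antagonists, 8 were tested and 1 was called. The highest antagonist genes per length were Nbl1 (25.4 RPKM), whose product DAN binds BMPs, Twsg1 (18.3 RPKM), whose product binds BMPs and chordin, and the chordin-like gene Chrdl1 (12.7 RPKM). Chrdl1 had 39.2 CPM in T14 and 40.2 in T10, with 140 in T8 and 123 in TUN, and Nbl1 had 100.3, 53.9, 28.4 and 24.2 CPM in the same order. Both missed the threshold (adjusted p = 0.072 for Chrdl1 and 0.164 for Nbl1). Noggin (Nog) stood at 3.26 RPKM.

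Of 8 genes of intracellular inhibitors, 0 of 8 were called. They were led by Fkbp1a (86.4 RPKM), whose product FKBP12 holds type I receptors inactive, the SMAD co-repressor gene Ski (39.5 RPKM) and Tob1 (24.5 RPKM). Other BMP target genes were mostly low: Hey1, a bHLH repressor gene also known as a Notch target, stood at 16.9 RPKM, Msx1 at 0.752 RPKM and Msx2 at 0.592 RPKM, and 0 of 4 tested were called, against 1, Msx2, without the filter and without TUN. Msx2, a homeobox gene, had 6.08 CPM in T14 and 1.18 in T10, with 0.461 in T8 and 0.0447 in TUN, which is 1 count. Of the 10 bHLH genes whose products pair with Id proteins or are held back by them, 0 of 8 tested were called, and 1, Neurod1, without the filter, without T14 and without TUN. Olig1 stood at 1394 RPKM and Olig2 at 363 RPKM. The E protein genes Tcf3, Tcf4 and Tcf12, whose products are the direct partners of Id proteins, stood at 29.9, 19.6 and 21.7 RPKM, below Id2 and above Id1 on that scale. Neurod1, a factor of granule neurons, was outside the test and had 151 CPM in T14 and 20.3 in T10, with 1.09 in T8 and 0.402 in TUN.

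**Figure D4:**
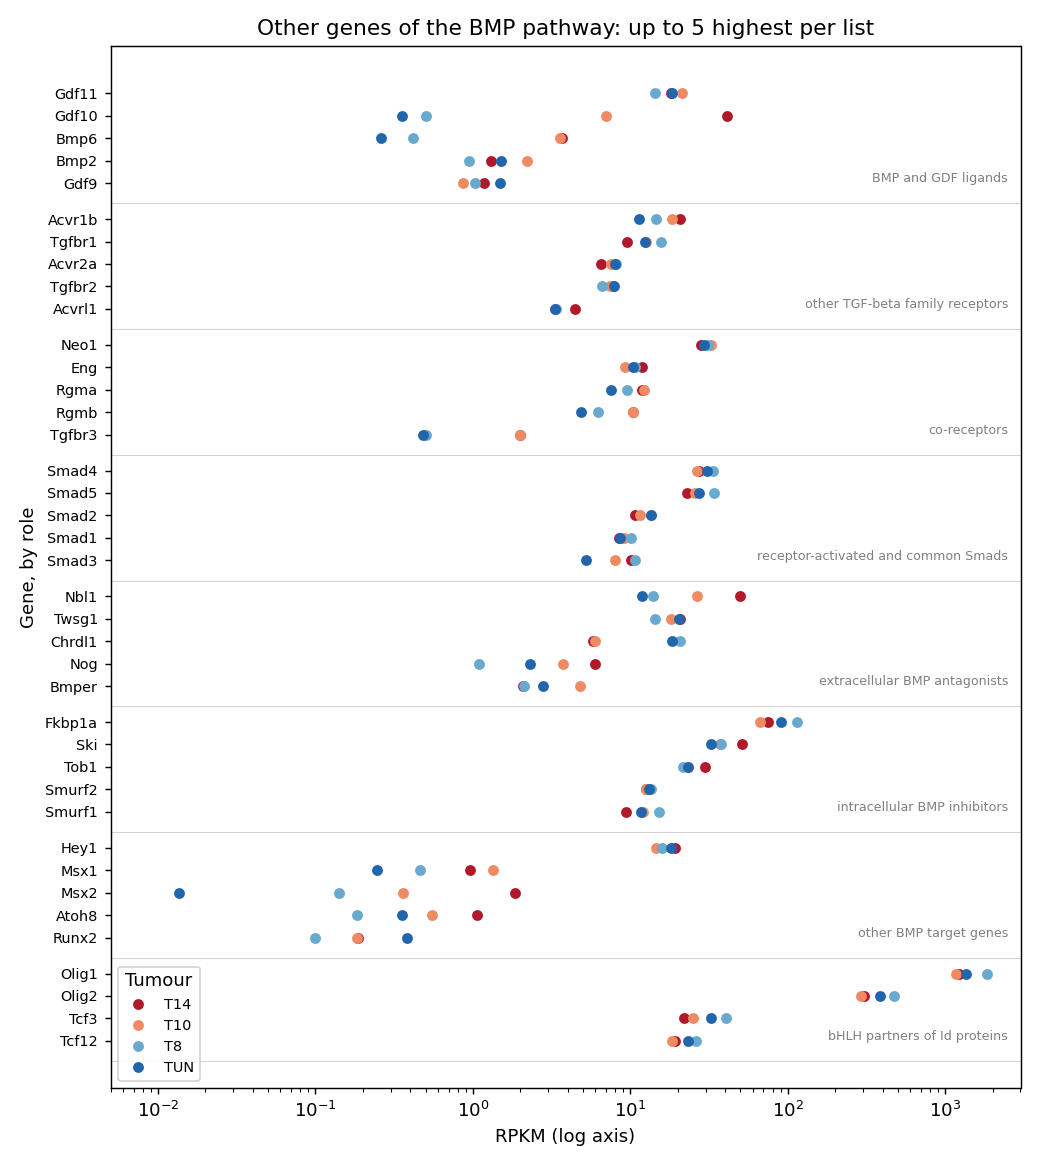
RPKM on a log axis (horizontal) of up to 5 genes per pathway list (vertical, by role), those with the highest mean among genes at mean CPM 1 or more, less any that is not reported here, with 1 point per tumour. Gdf10 and Bmp6 are spread widely, with T14 and T10 to the right of T8 and TUN, while the receptor genes and Smad1, Smad2, Smad4 and Smad5 lie closer together.

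Ordered by mean RPKM, the 10 genes ran Id2, Bmp7, Bmpr1a, Id3, Id4, Bmpr2, Id1, Acvr1, Bmpr1b and Smad6. Neighbours were taken to differ beyond their spread where the log2 difference had 1 sign in 4 of 4 tumours and a mean above its SD. This held for Id2 over Bmp7 (1.59 ± 0.73), Bmpr1a over Id3 (0.76 ± 0.50), Acvr1 over Bmpr1b (1.997 ± 0.986) and Bmpr1b over Smad6 (2.27 ± 0.17; SD, n = 4 for each). It did not hold for Bmp7 over Bmpr1a (0.56 ± 0.46, in 3 of 4 tumours), Id3 over Id4 (0.86 ± 1.12) or Id1 over Acvr1 (0.56 ± 0.41, in 3 of 4). Id4, Bmpr2 and Id1 could not be ordered, with differences of -0.31 ± 1.29 for Id4 over Bmpr2 and 0.00 ± 0.62 for Bmpr2 over Id1. The vM21 exon lengths were tried with the same counts, after the data were seen. Id2 over Bmp7 then no longer met the criterion (0.66 ± 0.73, higher in 4 of 4). Id3 over Id4 met it (2.05 ± 1.10), and Id4 came after Acvr1 in the order. Reads on the added bases were not counted, so these changes follow from the lengths alone. The difference between Bmpr1b and Smad6 had the smallest SD of the 9, and both genes had the same order of tumours.

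For each of the 10 genes the closest profiles were sought among 12040 genes at mean CPM 5 or more, as the smallest root mean square difference of centred log2 CPM over the 4 tumours. With 4 points many genes come close, so these are descriptions. Bmp7 was closest to Pmepa1 (0.04), whose product inhibits TGF-beta signalling, and to Mum1l1 (0.05). Pmepa1 had 67.6 CPM in T14 and 96.5 in T10, with 176 in T8 and 143 in TUN. Acvr1 was closest to Rpe and Cwc22 (0.01 each), and Bmpr1a to Gcn1l1 and Pcnx3 (0.01 each). Bmpr2 was closest to Rnf157 (0.02) and the chemokine gene Cx3cl1 (0.04). Bmpr1b was closest to the neurotrophin gene Bdnf (0.07), at 16.6, 10.7, 8.25 and 3.97 CPM in T14, T10, T8 and TUN, and to Fam213a (0.14).

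Among the BMP target genes, Smad6 was closest to Hopx and Tbc1d4 (0.07 each). Hopx, a homeodomain-like gene of radial glia and astrocytes, had 34.8 CPM in T14 and 25.1 in T10, with 12.03 in T8 and 7.23 in TUN. Id1 was closest to Fuom and Ech1 (0.04 each), Id2 to Ubl7 (0.01) and Zfp341 (0.02), and Id3 to Tarbp1 and Mr1 (0.02 each). Id4 was closest to Ankrd34a (0.06) and Slc22a4 (0.09), which had 25.5 and 32.9 CPM in T14 but 2.93 and 3.94 CPM in T8. None of the Id genes was among the 2 closest profiles of another Id gene. Since only 2 of 12040 genes were kept for each, this does not show whether the Id genes vary together.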

How the data were processed

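PolyA RNA of 4 untreated K27M mouse tumours was made into TruSeq libraries and sequenced on a HiSeq2500, per the labels. The authors deposited raw read counts per gene as 1 table. STAR, featureCounts and mm10 are named in the submitters' processing notes. Genes follow GENCODE vM8, as named with the table. Versions, the strand option and the treatment of multi-mapped reads are not stated in the labels or notes. The 4 columns match no single sample title, so all were taken as tumours of 1 group. Symbols matched 46451 of 46946 identifiers.

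Counts were scaled with the TMM factors of edgeR 4.0.16 (R 4.3.3) to CPM and, with the table's merged exon length, to RPKM. Variation was tested by an intercept-only edgeR fit at the trended dispersion after the default low-count filter. Its deviance was read against chi-square on 3 degrees of freedom, with Benjamini-Hochberg adjustment over 14266 genes. This step was tested on simulated data. List deviations used log2 CPM (prior count 2) of genes at mean CPM 1 or more. Ratios used log2(RPKM + 0.1). Alternatives were DESeq2 1.42.0 size factors and dispersion outliers, no filter, each tumour left out, other pseudocounts and CPM in place of RPKM.

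The genes and lists were chosen with earlier results of these data known. Named were the 10 genes, the 3 highest genes per pathway list by mean RPKM with those called, the 2 highest per cell type list by mean CPM, and the 2 closest profiles per gene. Gdf1 is not analysed here, and some genes that this rule names are not reported here. Bmp4, Tgfbr1, Smad1, Smad7, Smad9, Acvrl1, Nog, Tcf3, Tcf4, Tcf12, Tgfbr3, Neurod1 and Bmp10 were named beyond that rule, Bmp4, Tgfbr1 and Smad7 for the ratios and the others after their values were seen.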

Additional observations from a re-analysis of the deposited data

How the results depend on the processing

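The count of genes more variable than the trend was 619, and 608 with DESeq2 size factors, 713 without the filter and 426 to 462 with 1 tumour left out. DESeq2 marked 78 dispersion outliers. Among the 10 genes 1 was called, Id4, and 0 to 1 with 1 tumour left out. The count was 0 without T14, where the adjusted p of Id4 was 0.416, and 0 among DESeq2's dispersion outliers. The adjusted p of Id4 was 0.00399 to 0.0337 in its other settings. That of Bmp6 was 0.0896 without the filter and 0.165 without TUN. The 63 alternative values of the 9 ratios all kept their sign. Each ratio had 1 sign in 4 of 4 tumours, so only the values without length correction could have changed it. The 60 alternative means of the 10 genes moved by less than 1 SD. With 4 tumours, leaving 1 out cannot move a mean by 1 SD, so that part of the check could not fail. Without T14, which makes most of the SD of Id4, the mean of Id4 was 13.7 CPM against 24.2. The log2 ratio of Bmp7 to Bmp4 was 4.83 with pseudocount 1 and that of Smad6 to Smad7 was -1.80, since Bmp4 and Smad6 lie near 0. Without length correction the log2 ratio of Bmpr2 to Acvr1 was 2.46. Of 160 alternative list deviations, 8 moved by over 1 SD. No paired analysis was possible because all samples form 1 group. Of the 10 genes, depth limits Smad6 most, with 9 counts in TUN, and outside them Bmp4 had 8 counts in T8 and Msx2 1 in TUN.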

Other observations

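Bmp7 and the gene with the closest profile, Pmepa1, lie near each other on chromosome 2, a position looked up after the profiles were seen. Pmepa1 (173224458 to 173276533 in mm10) and Bmp7 are separated by 284 kb. Within 500 kb on either side of Bmp7, 6 other genes were tested, and 5 of them, Aurka, Cstf1, Rae1, Rbm38 and Pmepa1, stood higher in both T8 and TUN than in both other tumours, as did 32.5% of all genes tested. The median root mean square difference from Bmp7 was 0.35 log2 units for the 6 neighbours and 0.54 for all genes at mean CPM 5 or more. Rae1 had 41.1 CPM in T14 and 42.9 in T10, with 58.3 in T8 and 50.7 in TUN, and Rbm38 had 10.9, 9.44, 23.0 and 16.3 CPM. Aurka is a mitosis gene, and Rtf2 was the neighbour that did not share the order. Pmepa1 led to the region, so its place among the 5 and its part in the median of the 6 follow from that choice. No test was made, since the region was chosen for the profile of Pmepa1.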
